A study of Homo sapiens with 24 samples.

Results

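The genes described here are 39 nuclear genes for subunits of the respiratory complexes II, III, IV and V, taken by name, with earlier results of these data known. They comprise 4 subunits of complex II, 9 of complex III, 11 of complex IV and 15 of complex V, out of 24053 gene identifiers in the deposited table. All 39 were found in the table, and all 39 had the mean of at least 1 TPM (a length-corrected share of transcripts) over the samples that 13810 identifiers reached and that was required for testing. RNA was measured in ARPE-19, an established, spontaneously immortalised human line of retinal pigment epithelium. The groups were cells given siRNA against both NFE2L2 (the gene of the transcription factor Nrf2) and PINK1 (Nrf2-Pink1 siRNA), cells given Pink1 siRNA, cells given Nrf2 siRNA, and cells given a scramble siRNA, with 3 biological samples in each group. Every group, the scramble group included, thus received an siRNA, which lowers a transcript and leaves the gene in place; some labels nevertheless speak of knockout cells. The protocols also describe a scratch wound, and the sources used here do not say whether the cells taken for RNA had been wounded. Each of the 12 biological samples had been sequenced as 2 technical libraries, which were averaged. TPM gives a transcript's share of all transcripts after division by length, so that levels can be compared between genes. It does not keep the number of reads, so the depth behind each value is unknown.

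Complex II (succinate dehydrogenase) passes electrons from succinate to coenzyme Q, complex III passes them from coenzyme Q to cytochrome c, and complex IV (cytochrome c oxidase) passes them to oxygen. Complexes III and IV pump protons across the inner mitochondrial membrane, and complex V (ATP synthase) uses the returning protons to make ATP. All subunits of complex II are nuclear-encoded, whereas complexes III, IV and V also hold subunits encoded by mitochondrial DNA. Retinal pigment epithelium relies on oxidative metabolism, PINK1 is a kinase that marks damaged mitochondria for removal, and Nrf2 drives genes of the antioxidant response. Nrf2 is a different protein from NRF1 and from GABP (also called NRF-2), the nuclear respiratory factors that bind many promoters of respiratory subunits.

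Promoter windows, each from 250 bases before to 50 after the annotated start, were available for 30 of the 39 genes in RefSeq (GRCh38.p14). The 9 without a window were SDHC, UQCRB, CYC1, COX6C, NDUFA4, ATP5F1B, ATP5F1D, ATP5MC3 and ATP5MF. The windows were searched on both strands for GCGCA and GCGC with any base between them (bound by NRF1), CCGGAAG (bound by GABP), AANATGGC (bound by YY1) and TGACNNNGC (the core of the antioxidant response element, ARE, bound by Nrf2). A gene was counted when any of its windows matched, whereas the share of all windows counts each window singly. The NRF1 letters were found for 9 of the 30 genes (30%), against 5.78% of all windows in the table and 13.9% of the tested genes that had a window. The GABP letters were found for 15 of 30 genes (50%), against 10.3% of all windows and 23.3% of such tested genes. The YY1 letters were found for 12 of 30 genes (40%), against 6.58% and 12.9%. The ARE letters were found for 3 of 30 genes (10%), UQCRC1, UQCR11 and ATP5ME, against 13.3% and 19.5%. The windows below belong to UQCRC1, whose level was higher in every sample of all 3 groups given targeting siRNA than in every scramble sample, and to 3 genes that had among the largest differences of their complexes: UQCRC2, COX7B and SDHD. Capitals mark the letters found, and the sequence runs 5′ to 3′ on the strand of the gene. In UQCRC1 the NRF1 letters, like the ARE letters, lie on the other strand.
UQCRC1, chr3:48609597-48609896, minus strand, with ARE letters (on the other strand), NRF1 letters and YY1 letters in that order: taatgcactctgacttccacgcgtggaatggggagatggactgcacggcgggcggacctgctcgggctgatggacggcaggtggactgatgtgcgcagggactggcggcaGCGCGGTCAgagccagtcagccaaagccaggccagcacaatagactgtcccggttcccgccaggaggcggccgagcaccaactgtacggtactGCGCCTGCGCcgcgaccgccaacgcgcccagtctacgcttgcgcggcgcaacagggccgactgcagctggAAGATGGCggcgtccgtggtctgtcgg
UQCRC2, chr16:21953111-21953410, plus strand, with none of the letters: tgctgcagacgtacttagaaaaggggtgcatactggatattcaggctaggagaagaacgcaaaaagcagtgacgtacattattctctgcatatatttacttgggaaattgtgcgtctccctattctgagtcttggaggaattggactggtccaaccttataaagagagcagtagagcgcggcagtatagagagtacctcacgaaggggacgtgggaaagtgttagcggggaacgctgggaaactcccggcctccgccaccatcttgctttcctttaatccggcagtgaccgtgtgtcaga
COX7B, chrX:77899218-77899517, plus strand, with the YY1 letters on the other strand: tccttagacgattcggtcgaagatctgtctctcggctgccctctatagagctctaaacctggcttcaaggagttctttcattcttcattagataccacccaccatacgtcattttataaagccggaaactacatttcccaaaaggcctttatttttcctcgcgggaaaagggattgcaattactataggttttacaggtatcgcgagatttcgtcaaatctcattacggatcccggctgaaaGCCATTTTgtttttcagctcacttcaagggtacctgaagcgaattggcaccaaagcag
SDHD, chr11:112086623-112086922, plus strand, with NRF1 letters and, on the other strand, GABP letters: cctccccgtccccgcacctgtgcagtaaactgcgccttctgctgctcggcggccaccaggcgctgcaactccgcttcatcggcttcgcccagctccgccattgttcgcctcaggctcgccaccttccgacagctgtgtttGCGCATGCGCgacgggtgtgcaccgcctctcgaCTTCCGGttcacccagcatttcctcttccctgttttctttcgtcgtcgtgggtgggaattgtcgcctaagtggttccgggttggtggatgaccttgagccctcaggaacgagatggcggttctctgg
A match describes the letters only, and no match says nothing about binding of the factor.

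The siRNA targets checked the labels. PINK1 had 15.3, 20.5 and 20.2 TPM in Nrf2-Pink1 siRNA cells and 13.2, 12.4 and 18.3 TPM in Pink1 siRNA cells, against 66.6, 50.7 and 54.3 TPM in Nrf2 siRNA cells and 53.9, 57.7 and 55.8 TPM in scramble cells. NFE2L2 had 22.2, 30.1 and 34.4 TPM in Nrf2-Pink1 siRNA cells, 64.1, 70.4 and 71.6 TPM in Pink1 siRNA cells and 25.1, 11.1 and 23.9 TPM in Nrf2 siRNA cells, against 89.2, 74.3 and 78.5 TPM in scramble cells. Each target was thus lower in every sample given its siRNA. KRT8 and KRT18, keratins of simple epithelia, were at 465 to 1084 TPM. Of the pigment epithelium markers checked, MITF was at 55.3 to 110.5 TPM and OTX2 at 47.7 to 93.8 TPM. BEST1 was at 4.08 to 9.475 TPM, PMEL at 3.03 to 7.14 TPM and RLBP1 at 0.39 to 3.69 TPM. RPE65, the retinoid isomerase of mature pigment epithelium, was at 0 to 0.36 TPM. PTPRC, VWF and ALB (leukocyte, endothelial and liver markers) were below 1 TPM in all 12 samples. GFAP, a glial marker, was at 0 to 0.08 TPM in 10 samples, and reached 3.21 TPM in Pink1 siRNA replicate 3 and 1.58 TPM in scramble replicate 3. CD68, a lysosomal marker of macrophages, had 34.1, 34.8 and 52.5 TPM in Nrf2-Pink1 siRNA cells, 25.2, 30.5 and 30.9 TPM in Pink1 siRNA cells and 42.3, 105 and 52.7 TPM in Nrf2 siRNA cells, against 19.2, 33.8 and 37.9 TPM in scramble cells. TYR and TYRP1, enzymes of pigment synthesis, were higher at a limma adjusted p under 0.05 in each of the 3 comparisons with scramble. Their log2 fold changes ran from 1.16 to 2.09, and no other of the 9 tested epithelial markers passed. Of all genes tested, 0.753%, 0.471% and 0.333% passed with Nrf2-Pink1, Pink1 and Nrf2 siRNA. MITF, OTX2 and RLBP1 also had higher means in all 3 groups than in scramble cells. KRT18 had lower means in all 3 groups: 770.5, 698.8 and 563.7 TPM with Nrf2-Pink1, Pink1 and Nrf2 siRNA, against 811.1 TPM with scramble siRNA. KRT8, PMEL and BEST1 were higher than scramble in the mean in some groups and lower in others. The part of CD68 or of the pigment epithelium genes in the results was not tested. One identifier without a symbol in the name table, ENSG00000226958, took 41.4%, 29.4% and 15.5% of all TPM in the Nrf2-Pink1 siRNA samples, 35.5%, 32.3% and 24.8% in the Pink1 siRNA samples, 29.9%, 38.6% and 32.2% in the Nrf2 siRNA samples, and 34.6%, 36.3% and 32.4% in the scramble samples. Because TPM has a fixed total, this share moves the level of every other gene, and values without it are given below. The labels call the samples biological replicates and do not say whether they came from separate cultures, so p-values measure the spread between these samples.

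The 39 subunits were abundant and spanned a wide range of levels within each complex. In complex II, mean TPM over the 12 samples ran from 45.4 for SDHC to 93.9 for SDHD. In complex III it ran from 70.1 for UQCRFS1 to 266 for UQCRQ, and in complex IV from 18.2 for COX7B to 397 for COX7C. Complex V held the most abundant transcript of all 39, ATP5F1B with 541 TPM, and ATP5F1E with 22.6 TPM. Within complex IV, whose subunits stand in equal number in the enzyme, transcripts thus differed many-fold in level. Together the 39 genes took 4767, 5951 and 8274 TPM in Nrf2-Pink1 siRNA cells, 5950, 6255 and 6838 TPM in Pink1 siRNA cells, and 6886, 5096 and 6126 TPM in Nrf2 siRNA cells, against 6626, 6636 and 7432 TPM in scramble cells. The highest and the lowest of these 12 sums both belonged to Nrf2-Pink1 siRNA cells.

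**Figure D1:**
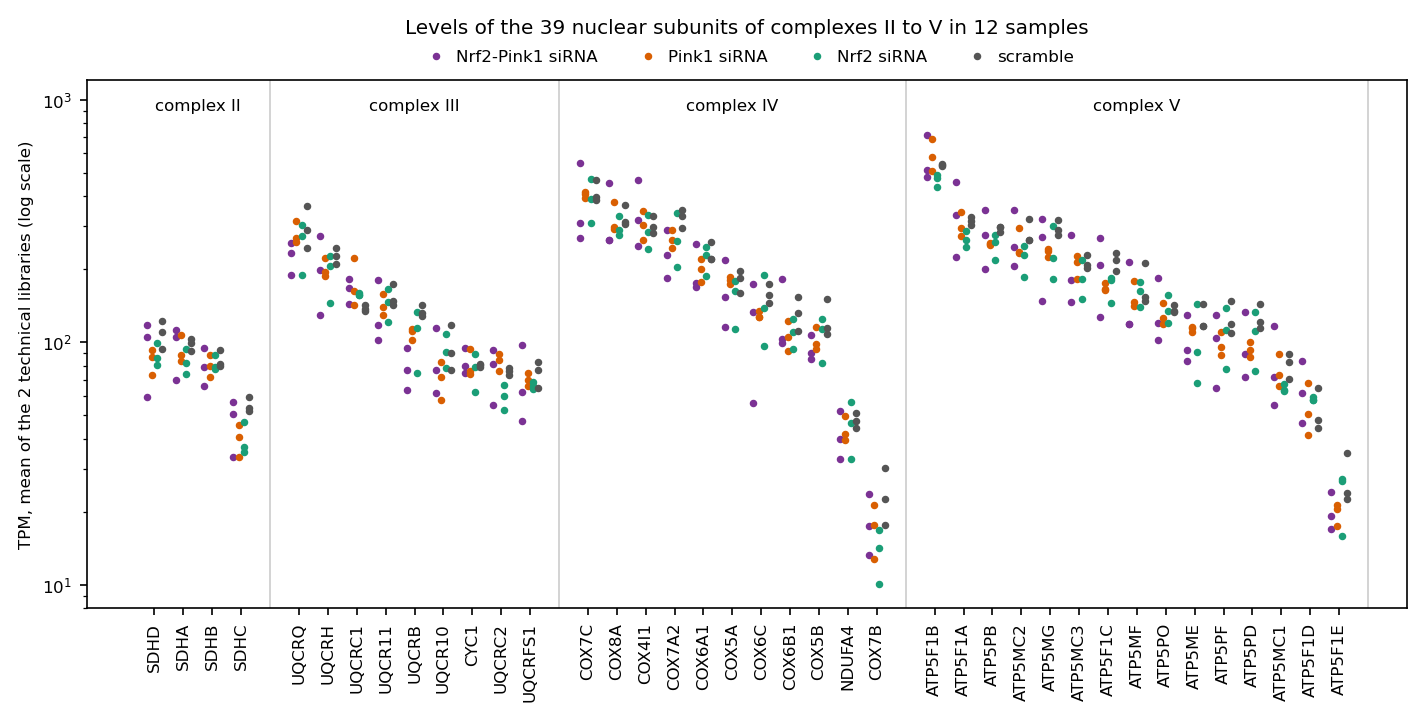
TPM of each of the 39 subunits (log scale), sorted by mean within its complex; each point is 1 biological sample, coloured by siRNA group. Levels run from about COX7B (mean 18.2 TPM) to ATP5F1B (mean 541 TPM), and the Nrf2-Pink1 siRNA points are the most widely spread.

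No subunit of complexes II to V passed the test in any comparison. Each siRNA group was compared with scramble by limma on log2(TPM + 1), with p-values adjusted by the Benjamini-Hochberg method over the 13810 genes tested and a threshold of 0.05; log2 fold changes are on that scale. With Nrf2-Pink1 siRNA 0 of 39 passed, against 0.753% of all genes tested. With Pink1 siRNA 0 of 39 passed, against 0.471% of all genes, and with Nrf2 siRNA 0 of 39, against 0.333%. At an unadjusted p under 0.05 the counts were 2 with Nrf2-Pink1 siRNA (UQCRB and COX7A2), 1 with Pink1 siRNA (SDHC) and 2 with Nrf2 siRNA (SDHC and COX7B), all lower than in scramble cells. Over all genes tested such a p was found for 14.2% (6.48% lower) with Nrf2-Pink1 siRNA, 12.2% (4.57% lower) with Pink1 siRNA and 12.2% (4.23% lower) with Nrf2 siRNA. A share of calls of 0 was therefore near the background for a set of this size.

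Most log2 fold changes nevertheless lay on the same side of 0. They were below 0 for 33 of 39 subunits with Nrf2-Pink1 siRNA (48.5% of all genes tested), 32 of 39 with Pink1 siRNA (46.7% of all genes) and 37 of 39 with Nrf2 siRNA (47.5% of all genes). The median log2 fold change of the 39 was -0.19 with Nrf2-Pink1 siRNA, -0.13 with Pink1 siRNA and -0.23 with Nrf2 siRNA, beside 0.01, 0.02 and 0.02 over all genes tested. In such bulk samples, fewer cells of a type and less RNA per cell cannot be told apart. These 3 comparisons share the scramble samples, so a low or high scramble sample moves all of them. The sign of the median with Nrf2-Pink1 siRNA rested on 1 sample. Without replicate 1 of that group the median was 0.04, beside 0.10 over all genes tested. Without replicate 3 it was -0.39, beside -0.05 over all genes. With Nrf2 siRNA the median was -0.09 without replicate 2 of that group and -0.35 without replicate 1. The median with Pink1 siRNA ranged from -0.20 to -0.07 when a sample was left out, the smallest difference coming without scramble replicate 3.

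The intervals show what size of change these samples could hold. The median standard error of a subunit's log2 fold change was 0.21 in each comparison, because the fit shares 1 estimate of the spread over all groups. The groups differed in spread, with a median SD of 0.42, 0.16, 0.23 and 0.13 for Nrf2-Pink1, Pink1, Nrf2 and scramble siRNA. The intervals may therefore be too narrow for Nrf2-Pink1 siRNA and too wide for the single siRNAs. The 95% interval lay wholly within a 2-fold change in either direction for 37 of 39 subunits with Nrf2-Pink1 siRNA, 38 of 39 with Pink1 siRNA and 38 of 39 with Nrf2 siRNA. The intervals that reached further were those of UQCRB and COX6C with Nrf2-Pink1 siRNA, COX6C with Pink1 siRNA and COX7B with Nrf2 siRNA.

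Groups that did not overlap were counted next. All 3 Nrf2-Pink1 siRNA samples lay below all 3 scramble samples for 3 of 39 subunits (UQCRB, COX5B and COX7A2), or 7.69% against 7.82% of all genes tested. All Pink1 siRNA samples lay below all scramble samples for 11 subunits (SDHC, SDHD, UQCRB, COX6C, COX7A2, ATP5F1C, ATP5F1E, ATP5PB, ATP5PD, ATP5ME and ATP5MG), or 28.2% against 11.2% of all genes. All Nrf2 siRNA samples did so for 9 subunits (SDHC, UQCRC2, COX7B, ATP5F1A, ATP5F1B, ATP5F1C, ATP5PB, ATP5MC1 and ATP5MC2), or 23.1% against 9.26% of all genes. In the other direction UQCRC1 was the 1 subunit whose samples all lay above scramble, and it did so in each of the 3 comparisons, or 2.56% against 10.2%, 13.8% and 13.6% of all genes with Nrf2-Pink1, Pink1 and Nrf2 siRNA. Subunits of complex V, which holds 15 of the 39, made up 6 of the 11 with Pink1 siRNA and 6 of the 9 with Nrf2 siRNA. They made up none of the 3 with Nrf2-Pink1 siRNA. Of 37 nuclear subunits of complex I, 13 lay below scramble without overlap with Pink1 siRNA, 5 with Nrf2 siRNA and 5 with Nrf2-Pink1 siRNA.

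**Figure D2:**
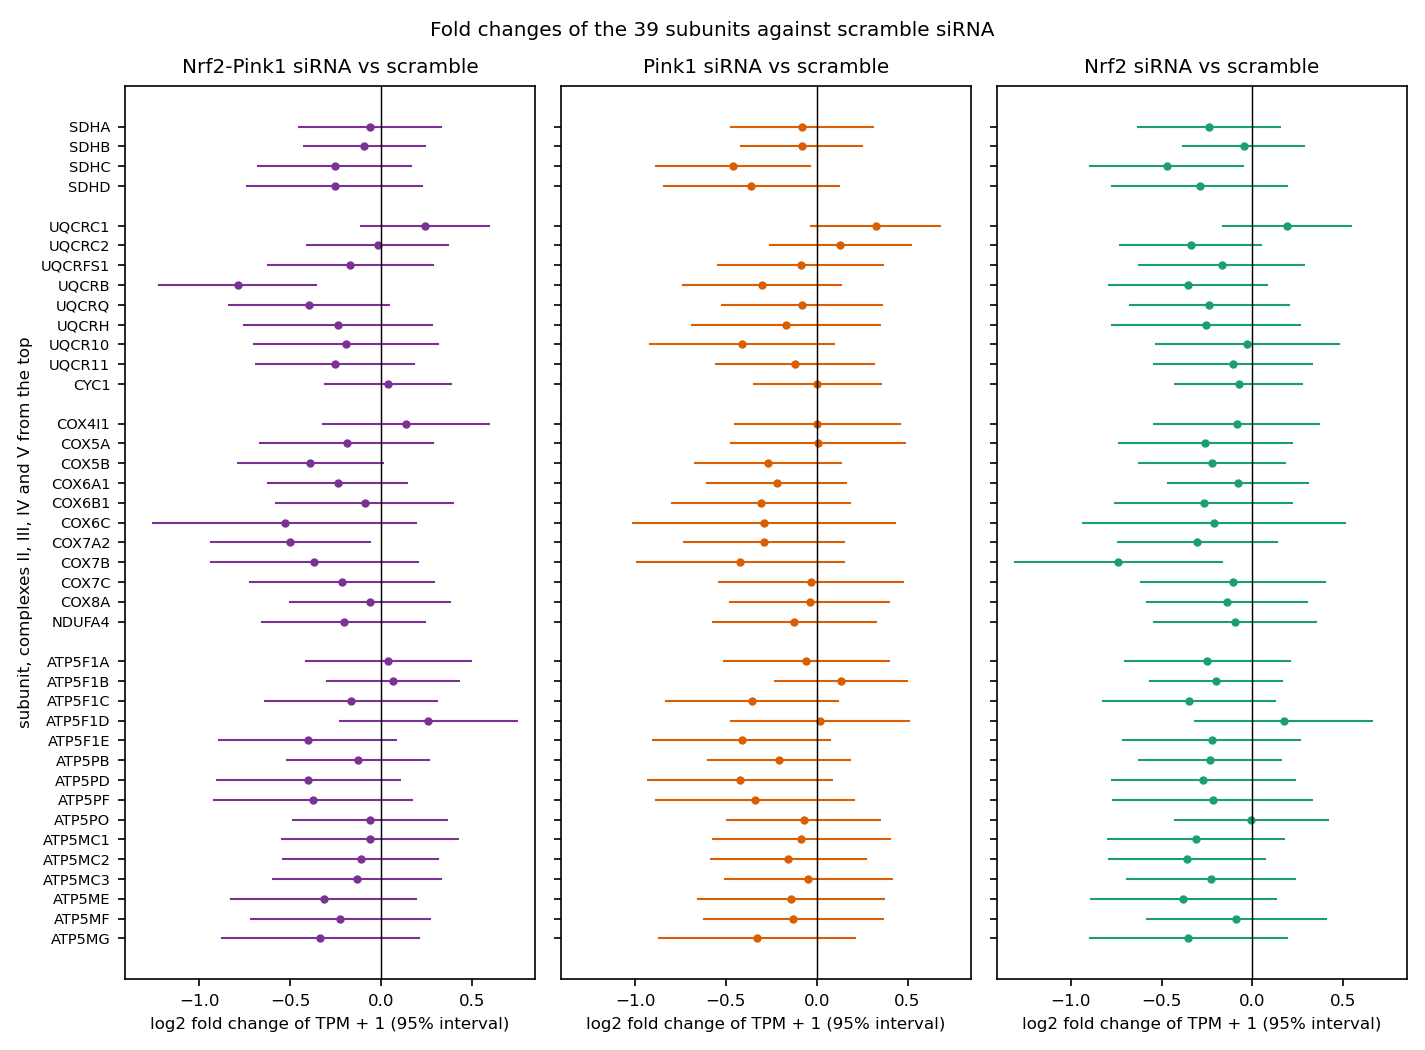
Log2 fold change (point) and 95% interval (line) of TPM + 1 for each subunit in Nrf2-Pink1, Pink1 and Nrf2 siRNA cells against scramble cells, from limma with 3 samples per group. Most points lie left of 0 by less than 0.5, UQCRC1 lies right of 0 in all 3 panels, and UQCRB (-0.79) and COX7B (-0.74) lie furthest left.

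Complex II is the smallest of the complexes described and also belongs to the citric acid cycle. SDHA, the flavoprotein that oxidises succinate, had 70.1, 105 and 112 TPM in Nrf2-Pink1 siRNA cells, 83.97, 88.2 and 107 TPM in Pink1 siRNA cells and 93.8, 74.1 and 81.8 TPM in Nrf2 siRNA cells, against 91.9, 103 and 99.2 TPM in scramble cells. SDHB, the iron-sulfur subunit, had 66.2, 79.2 and 95.02 TPM in Nrf2-Pink1 siRNA cells, 71.9, 88.9 and 79.4 TPM in Pink1 siRNA cells and 77.9, 88.5 and 79.3 TPM in Nrf2 siRNA cells, against 93.1, 81.04 and 80.1 TPM in scramble cells. The groups overlapped for both, and their log2 fold changes against scramble lay between -0.24 and -0.05. SDHC and SDHD anchor the complex in the membrane and bind coenzyme Q. SDHC had 33.8, 56.7 and 50.4 TPM in Nrf2-Pink1 siRNA cells, 40.7, 33.7 and 45.5 TPM in Pink1 siRNA cells and 46.8, 36.9 and 35.1 TPM in Nrf2 siRNA cells, against 59.6, 53.3 and 52.1 TPM in scramble cells. All samples of both single siRNAs lay below all scramble samples, and the Nrf2-Pink1 siRNA samples overlapped with scramble. The log2 fold change of SDHC was -0.46 with Pink1 siRNA (SE 0.20, limma adjusted p = 0.358) and -0.47 with Nrf2 siRNA (SE 0.20, limma adjusted p = 0.339). SDHD had 59.5, 105 and 118 TPM in Nrf2-Pink1 siRNA cells, 87.05, 92.8 and 73.3 TPM in Pink1 siRNA cells and 98.8, 86.3 and 80.5 TPM in Nrf2 siRNA cells, against 110.1, 123 and 93.3 TPM in scramble cells. The Pink1 siRNA samples were below scramble without overlap (log2 fold change -0.36, limma adjusted p = 0.54), and the other groups overlapped with it.

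Complex III held both the subunit that was higher than scramble in every siRNA group, UQCRC1, and the subunit with the smallest adjusted p, UQCRB, which was lower. UQCRC1, a large core protein on the matrix side, had 144, 167 and 182 TPM in Nrf2-Pink1 siRNA cells, 142, 163 and 223 TPM in Pink1 siRNA cells and 156, 157 and 159.5 TPM in Nrf2 siRNA cells, against 134, 138 and 142 TPM in scramble cells. Every sample with a targeting siRNA was above every scramble sample, the nearest being 142.3 TPM with Pink1 siRNA and 141.9 TPM with scramble siRNA, and none of the differences passed the test. Its log2 fold changes were 0.25, 0.32 and 0.19 with Nrf2-Pink1, Pink1 and Nrf2 siRNA, with limma adjusted p of 0.535, 0.453 and 0.697 and a standard error of 0.16 in each, and they stayed above 0 in all 19 other settings of each comparison. The largest Pink1 siRNA value, in replicate 3, came from the Pink1 siRNA sample with the lowest share of ENSG00000226958; the part of that share in the difference was not tested. UQCRC2, the partner core protein, had 55.1, 81.5 and 93.2 TPM in Nrf2-Pink1 siRNA cells, 75.9, 89.2 and 84.7 TPM in Pink1 siRNA cells and 66.8, 52.7 and 60.2 TPM in Nrf2 siRNA cells, against 73.4, 78.2 and 75.9 TPM in scramble cells. It was the subunit with the largest positive log2 fold change of Pink1 siRNA against Nrf2 siRNA cells, 0.47 (SE 0.18, 95% interval 0.08 to 0.86, limma adjusted p = 0.318), and these 2 groups did not overlap.

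UQCRB, a small subunit at the coenzyme Q site, had the smallest adjusted p of the 39. It had 63.3, 76.7 and 94.3 TPM in Nrf2-Pink1 siRNA cells, 111, 113 and 102 TPM in Pink1 siRNA cells and 133, 74.9 and 115 TPM in Nrf2 siRNA cells, against 142, 128 and 132 TPM in scramble cells. The Nrf2-Pink1 siRNA samples were below all Pink1 siRNA and all scramble samples. The log2 fold change of Nrf2-Pink1 siRNA against scramble was -0.79 (SE 0.20, 95% interval -1.22 to -0.35, limma adjusted p = 0.0991), or 0.579 times the scramble level. It passed the threshold in 4 of 19 other settings, among them removal of ENSG00000226958, median-of-ratios rescaling and quantile normalization, and its adjusted p ranged from 0.000461 to 0.333 over the 19. In those 4 settings 2.06% to 22.2% of all genes tested passed, against 0.753% as deposited. Against Pink1 siRNA the log2 fold change of UQCRB with Nrf2-Pink1 siRNA was -0.49 (limma adjusted p = 0.772), and against Nrf2 siRNA it was -0.43 (limma adjusted p = 0.717).

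The catalytic subunits that carry electrons through complex III overlapped between groups. CYC1, cytochrome c1, had 79.5, 74.6 and 94.9 TPM in Nrf2-Pink1 siRNA cells, 75.8, 73.6 and 93.8 TPM in Pink1 siRNA cells and 62.5, 89.3 and 79.3 TPM in Nrf2 siRNA cells, against 81.1, 79.1 and 80.8 TPM in scramble cells. UQCRFS1, the Rieske iron-sulfur protein, had 47.5, 62.3 and 97.6 TPM in Nrf2-Pink1 siRNA cells, 69.7, 65.7 and 74.9 TPM in Pink1 siRNA cells and 68.6, 65.9 and 63.9 TPM in Nrf2 siRNA cells, against 76.97, 64.6 and 83.1 TPM in scramble cells. Their log2 fold changes against scramble ran from -0.17 to 0.04. UQCRQ, a small subunit and the most abundant transcript of the complex, had 189.6, 233 and 256 TPM in Nrf2-Pink1 siRNA cells, 268, 316 and 259 TPM in Pink1 siRNA cells and 304, 189.6 and 273 TPM in Nrf2 siRNA cells, against 244, 290.4 and 364 TPM in scramble cells. The Nrf2-Pink1 siRNA samples lay below all Pink1 siRNA samples and overlapped with scramble. UQCR10, another small subunit, had 62.01, 76.6 and 114 TPM in Nrf2-Pink1 siRNA cells, 71.7, 57.6 and 83.1 TPM in Pink1 siRNA cells and 108, 78.5 and 91.4 TPM in Nrf2 siRNA cells, against 76.8, 90.2 and 118 TPM in scramble cells. It had the largest negative log2 fold change of Pink1 siRNA against Nrf2 siRNA cells, -0.39 (limma adjusted p = 0.605), with 1 pair of samples overlapping. For UQCRH and UQCR11 the groups overlapped in all comparisons, with log2 fold changes against scramble between -0.26 and -0.11.

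In complex IV, 0 of 11 subunits were called, and log2 fold changes against scramble were below 0 for 10 with Nrf2-Pink1 siRNA, 9 with Pink1 siRNA and 11 with Nrf2 siRNA (48.5%, 46.7% and 47.5% of all genes tested). COX4I1, the largest nuclear subunit and the one through which ATP regulates the enzyme, had 249, 320.3 and 465 TPM in Nrf2-Pink1 siRNA cells, 265, 305 and 348 TPM in Pink1 siRNA cells and 335, 243 and 285 TPM in Nrf2 siRNA cells, against 298, 281 and 332 TPM in scramble cells. COX5B, a zinc-binding subunit, had 85.3, 90.6 and 107 TPM in Nrf2-Pink1 siRNA cells, 98.1, 93.9 and 116 TPM in Pink1 siRNA cells and 125, 82.4 and 113 TPM in Nrf2 siRNA cells, against 114, 108 and 151 TPM in scramble cells. The Nrf2-Pink1 siRNA samples of COX5B were all below scramble (log2 fold change -0.39, limma adjusted p = 0.368), whereas COX4I1 overlapped in every comparison. COX7A2, the form of subunit VIIa used outside heart and muscle, had 184, 228 and 291 TPM in Nrf2-Pink1 siRNA cells, 245, 264 and 291 TPM in Pink1 siRNA cells and 342, 204 and 262 TPM in Nrf2 siRNA cells, against 295, 351 and 332 TPM in scramble cells. The samples with Nrf2-Pink1 siRNA and those with Pink1 siRNA lay below scramble without overlap. Its log2 fold change with Nrf2-Pink1 siRNA was -0.50 (SE 0.20, limma adjusted p = 0.285), and it passed the threshold in 3 of 19 other settings, with adjusted p from 0.00626 to 0.555; these 3 are among the 4 in which UQCRB passed.

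COX7B had the lowest level of complex IV and the largest fold change with Nrf2 siRNA. It had 13.2, 23.7 and 17.4 TPM in Nrf2-Pink1 siRNA cells, 17.7, 12.8 and 21.4 TPM in Pink1 siRNA cells and 16.9, 14.2 and 10.03 TPM in Nrf2 siRNA cells, against 30.4, 22.6 and 17.7 TPM in scramble cells. All Nrf2 siRNA samples lay below all scramble samples, the nearest being 16.9 TPM with Nrf2 siRNA against 17.7 TPM with scramble siRNA. The log2 fold change with Nrf2 siRNA was -0.74 (SE 0.26, 95% interval -1.31 to -0.17, limma adjusted p = 0.263), and the adjusted p ranged from 0.0439 to 0.636 over 19 other settings. COX7C, the most abundant transcript of the complex, had 268, 310.5 and 549 TPM in Nrf2-Pink1 siRNA cells, 416, 409 and 393 TPM in Pink1 siRNA cells and 472, 311 and 389.9 TPM in Nrf2 siRNA cells, against 387, 396 and 466 TPM in scramble cells. NDUFA4, once counted with complex I and now with complex IV, had 32.9, 40.1 and 52.1 TPM in Nrf2-Pink1 siRNA cells, 49.5, 39.4 and 42.02 TPM in Pink1 siRNA cells and 56.9, 32.9 and 46.3 TPM in Nrf2 siRNA cells, against 47.3, 44.1 and 51.1 TPM in scramble cells. Groups overlapped for COX7C and NDUFA4 in every comparison. COX6C, a small transmembrane subunit, varied most among the samples, from 56.0 TPM in Nrf2-Pink1 siRNA replicate 1 to 189.7 TPM in Nrf2 siRNA replicate 1, and its Pink1 siRNA samples were below all scramble samples (log2 fold change -0.29, limma adjusted p = 0.77). The remaining subunits, COX5A, COX6A1, COX6B1 and COX8A, had log2 fold changes between -0.31 and 0.01 against scramble, and their groups overlapped.

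Complex V consists of a catalytic head (F1) and a membrane rotor and stalk (Fo). ATP5F1A, the alpha subunit of the head, had 224, 335 and 458 TPM in Nrf2-Pink1 siRNA cells, 274, 295 and 345 TPM in Pink1 siRNA cells and 264, 248 and 287 TPM in Nrf2 siRNA cells, against 327, 316 and 305 TPM in scramble cells. ATP5F1B, the catalytic beta subunit, had 479, 515 and 714 TPM in Nrf2-Pink1 siRNA cells, 507, 581 and 690.1 TPM in Pink1 siRNA cells and 477, 435 and 487 TPM in Nrf2 siRNA cells, against 540.0, 536 and 530.3 TPM in scramble cells. With Nrf2 siRNA both lay below all scramble samples, by log2 fold changes of -0.25 and -0.20 that did not pass the test (limma adjusted p = 0.694 and 0.691). ATP5F1B was also higher with Pink1 siRNA than with Nrf2 siRNA in all samples (log2 fold change 0.33, limma adjusted p = 0.497). ATP5F1C, the gamma subunit that turns inside the head, had 128, 208 and 268 TPM in Nrf2-Pink1 siRNA cells, 165, 164 and 176 TPM in Pink1 siRNA cells and 184, 145 and 181 TPM in Nrf2 siRNA cells, against 218, 197 and 233 TPM in scramble cells. The samples of both single siRNAs lay below scramble, with log2 fold changes of -0.35 for Pink1 siRNA and -0.35 for Nrf2 siRNA (limma adjusted p = 0.54 and 0.571), and the Nrf2-Pink1 siRNA samples spanned the scramble range on both sides.

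With Nrf2-Pink1 siRNA, the small delta and epsilon subunits of the head had the highest and the lowest log2 fold change of complex V. ATP5F1D (delta) had 61.5, 46.4 and 83.3 TPM in Nrf2-Pink1 siRNA cells, 50.4, 41.6 and 68.03 TPM in Pink1 siRNA cells and 59.4, 57.5 and 57.9 TPM in Nrf2 siRNA cells, against 44.5, 47.7 and 64.7 TPM in scramble cells. It had the largest positive log2 fold change of the 39 with Nrf2-Pink1 siRNA against scramble, 0.26 (SE 0.23, limma adjusted p = 0.654), with overlapping groups, and the value ranged from -0.15 to 0.46 over 19 other settings. ATP5F1E (epsilon) had 24.1, 17.1 and 19.1 TPM in Nrf2-Pink1 siRNA cells, 20.6, 17.5 and 21.4 TPM in Pink1 siRNA cells and 27.2, 15.8 and 26.8 TPM in Nrf2 siRNA cells, against 22.6, 23.9 and 34.8 TPM in scramble cells. Its Pink1 siRNA samples lay below scramble (log2 fold change -0.41, limma adjusted p = 0.496). ATP5F1EP2, a copy of ATP5F1E listed in the table, had a mean of 3.58 TPM, or 15.9% of ATP5F1E, so how reads were split between the copies adds to the uncertainty of ATP5F1E.

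ATP5MC1, ATP5MC2 and ATP5MC3 encode the same mature subunit c of the rotor ring with different targeting peptides. ATP5MC1 had 55.02, 71.9 and 116 TPM in Nrf2-Pink1 siRNA cells, 66.3, 73.5 and 89.5 TPM in Pink1 siRNA cells and 67.3, 62.97 and 63.8 TPM in Nrf2 siRNA cells, against 70.7, 89.1 and 82.6 TPM in scramble cells. ATP5MC2 had 207, 246 and 350.1 TPM in Nrf2-Pink1 siRNA cells, 236, 233 and 295 TPM in Pink1 siRNA cells and 249, 186 and 228 TPM in Nrf2 siRNA cells, against 263, 265 and 322 TPM in scramble cells. ATP5MC3 had 147, 180.4 and 276 TPM in Nrf2-Pink1 siRNA cells, 182, 213 and 226 TPM in Pink1 siRNA cells and 219, 150.2 and 182 TPM in Nrf2 siRNA cells, against 208, 202 and 229.7 TPM in scramble cells. ATP5MC2 and ATP5MC3 supplied most of the subunit c transcript in every sample. With Nrf2 siRNA, ATP5MC1 and ATP5MC2 lay below all scramble samples by log2 fold changes of -0.31 and -0.36, and ATP5MC3 overlapped with scramble at -0.23 (limma adjusted p = 0.635, 0.514 and 0.729). Of the stalk and membrane subunits, ATP5PB (subunit b) had 200.2, 276 and 351 TPM in Nrf2-Pink1 siRNA cells, 254, 255 and 252 TPM in Pink1 siRNA cells and 275, 217 and 259.8 TPM in Nrf2 siRNA cells, against 299, 298 and 283 TPM in scramble cells. Both single siRNAs lay below scramble without overlap, at log2 fold changes of -0.21 with Pink1 siRNA and -0.23 with Nrf2 siRNA (limma adjusted p = 0.681 and 0.666). The other stalk and membrane subunits, ATP5PD, ATP5PF, ATP5PO (the oligomycin-sensitivity protein), ATP5ME, ATP5MF and ATP5MG, had log2 fold changes from -0.42 to -0.01 against scramble.

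**Figure D3:**
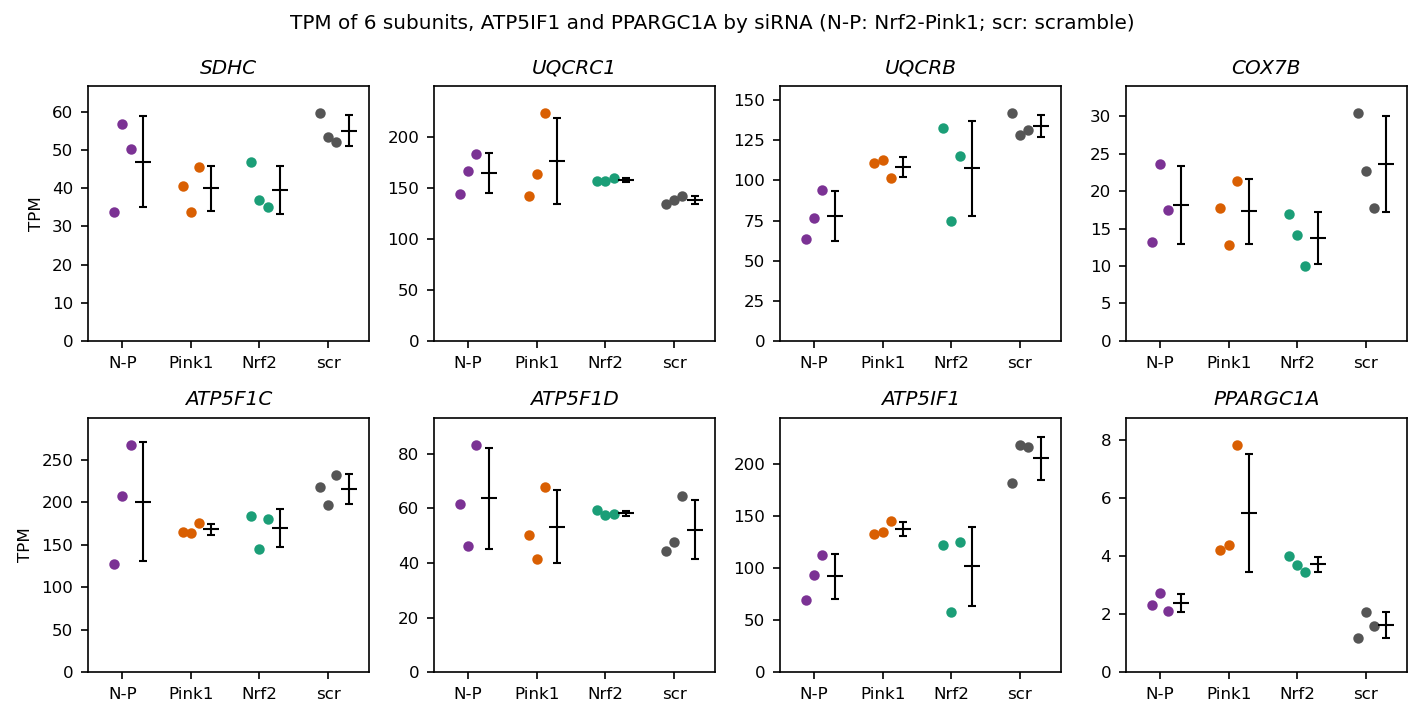
TPM of SDHC, UQCRC1, UQCRB, COX7B, ATP5F1C and ATP5F1D, of the inhibitor ATP5IF1 and of the coactivator PPARGC1A; points are the 3 biological samples of each group, and black marks give the mean and SD. UQCRC1 and PPARGC1A are lowest in scramble cells, and ATP5IF1 is highest there.

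The double siRNA was then compared with each single siRNA, and the single siRNAs with each other. No subunit passed the test in any of the 3 comparisons. Against Pink1 siRNA, Nrf2-Pink1 siRNA gave 0 of 39 called (0.0434% of all genes tested) and a median log2 fold change of -0.02. Its extremes were ATP5F1D at 0.24 and UQCRB at -0.49, and UQCRB and UQCRQ lay below all Pink1 siRNA samples (2 of 39 subunits, against 5.67% of all genes). Against Nrf2 siRNA, Nrf2-Pink1 siRNA gave 0 of 39 called (0.0145% of all genes) and a median of 0.03, between 0.37 for COX7B and -0.43 for UQCRB, and every subunit overlapped, whereas 9.49% of all genes did not. Pink1 siRNA against Nrf2 siRNA gave 0 of 39 called (0.992% of all genes) and a median of 0.02, and UQCRC2 and ATP5F1B were higher with Pink1 siRNA in all samples (2 of 39 subunits, against 9.41% of all genes). In each of these comparisons 1 subunit had an unadjusted p under 0.05: UQCRB in the first and the second, and UQCRC2 in the third. The background shares at that p were 5.8%, 6.95% and 11.2%.

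The interaction asks whether the double siRNA departs from the sum of the log2 effects of the single siRNAs. It gave 0 of 39 subunits and 0 of 13810 genes called by limma, and at an unadjusted p under 0.05 it gave 1 subunit, SDHC, and 5.45% of all genes. The median over the 39 was 0.14, against -0.03 over all genes tested, and 32 of 39 lay above 0, whereas 54% of all genes tested lay below 0. A value above 0 means that the double siRNA cells were higher than the sum of the single effects gives. COX7B had the largest positive interaction at 0.79 (SE 0.37, limma adjusted p = 0.9) and UQCRC1 the largest negative at -0.27 (SE 0.23, limma adjusted p = 0.913). SDHC had 0.68 (SE 0.28, limma adjusted p = 0.879). The median interaction was -0.03 without Nrf2-Pink1 siRNA replicate 3 and 0.32 without replicate 1, so its sign depended on 1 sample.

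Samples of the same group differed from each other across most of the 39 subunits at once. In Nrf2-Pink1 siRNA cells, replicate 1 had the lowest value of its group for 32 of 39 subunits (63.0% of all genes tested) and replicate 3 the highest for 36 of 39 (52.4% of all genes). In Nrf2 siRNA cells, replicate 2 was the lowest for 32 of 39 (47.2% of all genes). That sample also had the highest CD68 of the 12, 105 TPM, and the part of it in the Nrf2 siRNA median was not tested. Expressed as the median log2 difference from the scramble mean, the 39 subunits stood at -0.53, -0.22 and 0.26 in the Nrf2-Pink1 siRNA samples, -0.23, -0.20 and -0.09 in the Pink1 siRNA samples, and 0.01, -0.48 and -0.15 in the Nrf2 siRNA samples, against -0.05, -0.07 and 0.12 in the scramble samples. Nrf2-Pink1 siRNA replicates 1 and 3, the lowest and the highest, also had the highest and the lowest share of ENSG00000226958. The median SD of a subunit's log2 value was 0.42 among Nrf2-Pink1 siRNA samples, 0.16 among Pink1 siRNA samples and 0.23 among Nrf2 siRNA samples, against 0.13 among scramble samples. Between the technical libraries of a sample it was 0.12.

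With ENSG00000226958 taken out and each sample scaled back to the same total, the order of the samples changed. The medians were then -0.38, -0.33 and -0.11 in the Nrf2-Pink1 siRNA samples, -0.20, -0.25 and -0.28 in the Pink1 siRNA samples, and -0.09, -0.39 and -0.20 in the Nrf2 siRNA samples, against -0.04, -0.02 and 0.07 in the scramble samples. The median of the 39 in every sample given a targeting siRNA was below that in every scramble sample on this scale. The medians of all genes tested ran from -0.16 to -0.03 with Nrf2-Pink1 siRNA, from -0.05 to -0.01 with Pink1 siRNA and from -0.03 to 0.04 with Nrf2 siRNA, against -0.04 to 0.04 with scramble siRNA. In Nrf2-Pink1 siRNA replicate 3 the median of all genes (-0.16) was below that of the subunits (-0.11). The separation was not seen in every complex: complex IV stood at -0.03 in Nrf2 siRNA replicate 1, against -0.09 in scramble replicate 1, and complex II at -0.11 in Nrf2-Pink1 siRNA replicate 2, against -0.12 in scramble replicate 3. The summed level of the 39 subunits was 8131 to 9795 TPM with Nrf2-Pink1 siRNA, 9102 to 9246 TPM with Pink1 siRNA and 8297 to 9821 TPM with Nrf2 siRNA, against 10127.5 to 10995.9 TPM with scramble siRNA. On this scale UQCRB and COX7A2 (2 of 39 subunits, against 2.06% of all genes tested) passed the limma test with Nrf2-Pink1 siRNA, both lower than in scramble cells, and no subunit passed in the other comparisons. The median log2 fold change of the 39 was then -0.30 with Nrf2-Pink1 siRNA, -0.20 with Pink1 siRNA and -0.25 with Nrf2 siRNA, beside -0.08, -0.04 and 0.00 over all genes tested. Of the 39, 36, 36 and 37 lay below 0, beside 59.2%, 54.6% and 49.1% of all genes.

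**Figure D4:**
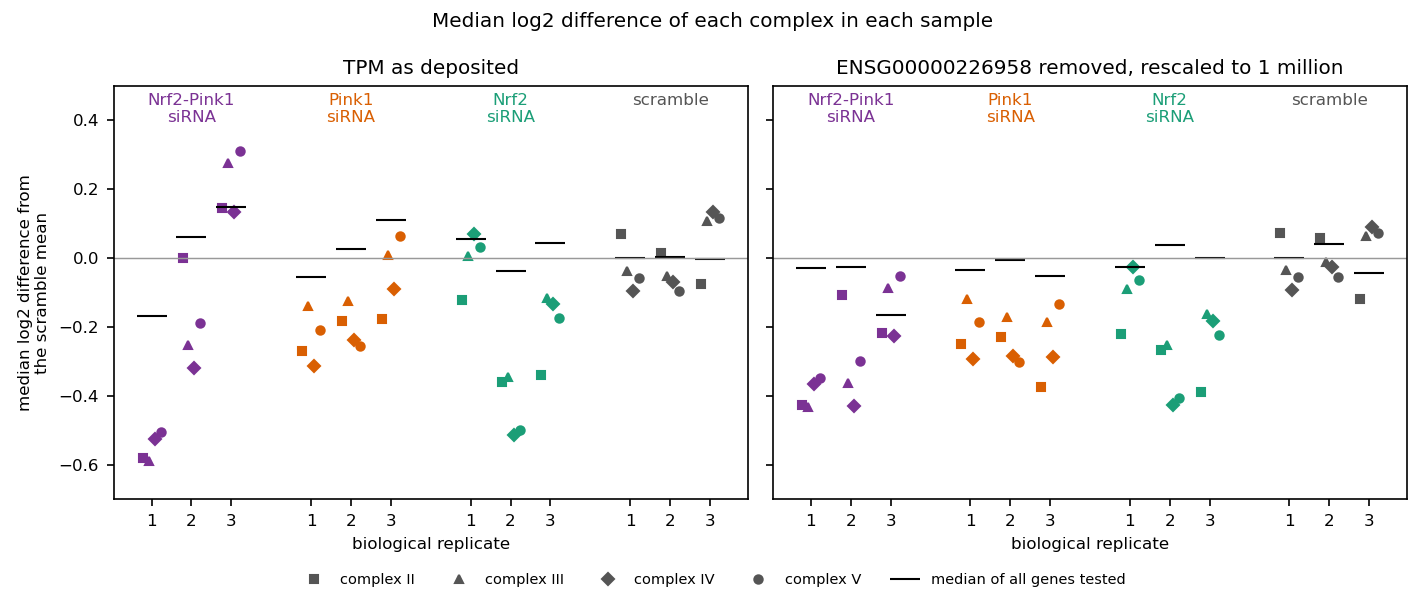
Median log2 difference from the scramble mean for the subunits of each complex in each of the 12 samples, with TPM as deposited (left) and after removal of ENSG00000226958 (right); black bars give the median of all genes tested. The Nrf2-Pink1 siRNA samples run from well below to above 0 on the left (medians of all 39 subunits from -0.53 to 0.26) and lie below 0 on the right (medians of all 39 from -0.38 to -0.11).

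The complexes were set against each other within each sample, so that the scaling of a sample drops out. The difference between the median log2 differences of complex III and complex IV was 0.10 to 0.17 in Pink1 siRNA cells, against -0.03 to 0.06 in scramble cells, without overlap; it was -0.06 to 0.14 in Nrf2-Pink1 siRNA cells and -0.06 to 0.17 in Nrf2 siRNA cells. Complex IV minus complex V was -0.18 to -0.02 in Nrf2-Pink1 siRNA cells, -0.15 to 0.02 in Pink1 siRNA cells and -0.02 to 0.04 in Nrf2 siRNA cells, against -0.04 to 0.03 in scramble cells. Complex III minus complex V was -0.08 to -0.03 in Nrf2-Pink1 siRNA cells, against -0.01 to 0.04 in scramble cells, also without overlap; it was -0.06 to 0.13 in Pink1 siRNA cells and -0.02 to 0.15 in Nrf2 siRNA cells. Complex II minus complex III was -0.13 to 0.25 in Nrf2-Pink1 siRNA cells, -0.19 to -0.06 in Pink1 siRNA cells and -0.22 to -0.01 in Nrf2 siRNA cells, against -0.18 to 0.11 in scramble cells. Complex II minus complex IV was -0.06 to 0.32 in Nrf2-Pink1 siRNA cells, -0.09 to 0.05 in Pink1 siRNA cells and -0.20 to 0.16 in Nrf2 siRNA cells, against -0.21 to 0.17 in scramble cells. Complex II minus complex V was -0.17 to 0.19 in Nrf2-Pink1 siRNA cells, -0.24 to 0.07 in Pink1 siRNA cells and -0.17 to 0.14 in Nrf2 siRNA cells, against -0.19 to 0.13 in scramble cells. These medians rest on 4 to 15 genes, and 6 pairs of complexes were compared with scramble in each siRNA group. With 3 samples per group, some pairs can separate without any effect of the siRNA. Values were taken from the scramble mean, which draws the scramble samples toward 0. The differences are given as a description. By complex, the median log2 fold change against scramble was -0.17, -0.22 and -0.26 for complex II, -0.19, -0.09 and -0.17 for complex III, -0.21, -0.22 and -0.21 for complex IV, and -0.13, -0.14 and -0.23 for complex V, with Nrf2-Pink1, Pink1 and Nrf2 siRNA in that order.

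The 37 nuclear subunits of complex I, which feeds electrons from NADH into the same chain, were close to the 39. Their median log2 fold change was -0.16 with Nrf2-Pink1 siRNA, -0.16 with Pink1 siRNA and -0.18 with Nrf2 siRNA, and 0 of 37 were called in any of them. NDUFC1, a small accessory subunit, had the smallest adjusted p of the list with Nrf2-Pink1 siRNA: 51.4, 82.6 and 65.2 TPM, against 119, 126 and 139 TPM in scramble cells (log2 fold change -0.96, limma adjusted p = 0.0774). The partner subunits encoded by mitochondrial DNA are not analysed here.

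Of the genes that act on these complexes, ATP5IF1 and PPARGC1A had the smallest adjusted p. ATP5IF1 encodes the inhibitor that stops complex V from running in reverse. It had 69.5, 94.1 and 113 TPM in Nrf2-Pink1 siRNA cells, 133, 135 and 145 TPM in Pink1 siRNA cells and 123, 58.05 and 125 TPM in Nrf2 siRNA cells, against 182, 219 and 216 TPM in scramble cells. Every sample of the 3 groups lay below every scramble sample. The log2 fold change was -1.17 with Nrf2-Pink1 siRNA (SE 0.26, limma adjusted p = 0.0629), -0.57 with Pink1 siRNA (SE 0.26, limma adjusted p = 0.399) and -1.08 with Nrf2 siRNA (SE 0.26, limma adjusted p = 0.1). ATP5IF1 passed the threshold in 5 of 19 other settings with Nrf2-Pink1 siRNA (adjusted p from 0.000371 to 0.33), in 4 of 19 with Nrf2 siRNA (0.018 to 0.27) and in 0 of 19 with Pink1 siRNA (0.0618 to 0.682). ATP5MJ and ATP5MK, small subunits of the membrane part, formed with it a list of 3 whose median log2 fold change was -0.64, -0.57 and -0.69 with Nrf2-Pink1, Pink1 and Nrf2 siRNA.

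PPARGC1A, a coactivator that drives mitochondrial biogenesis, rose with Pink1 siRNA, the 1 gene that passed the test against scramble among 11 tested regulators of respiratory gene transcription. It had 2.31, 2.74 and 2.13 TPM in Nrf2-Pink1 siRNA cells, 4.21, 4.39 and 7.83 TPM in Pink1 siRNA cells and 3.995, 3.68 and 3.47 TPM in Nrf2 siRNA cells, against 1.19, 2.08 and 1.60 TPM in scramble cells. All samples with a targeting siRNA lay above all scramble samples. The log2 fold change with Pink1 siRNA was 1.28 (SE 0.23, limma adjusted p = 0.0318), or 2.42 times the scramble level on the TPM + 1 scale. The call held in 7 of 18 other settings and in none of the 6 that left out a sample, with adjusted p from 0.00513 to 0.141. With Nrf2 siRNA the log2 fold change was 0.86 (limma adjusted p = 0.151) and with Nrf2-Pink1 siRNA 0.38 (limma adjusted p = 0.492). TFAM, which packages and transcribes mitochondrial DNA, had 10.8, 18.96 and 20.4 TPM in Nrf2-Pink1 siRNA cells, 10.5, 12.7 and 12.04 TPM in Pink1 siRNA cells and 24.4, 19.4 and 17.7 TPM in Nrf2 siRNA cells, against 20.1, 21.1 and 23.8 TPM in scramble cells. Its Pink1 siRNA samples and Nrf2-Pink1 siRNA replicate 1 lay below all the others, and Pink1 siRNA had a log2 fold change against scramble of -0.83 that did not pass the test (limma adjusted p = 0.117). NRF1, whose letters are marked in the promoters of UQCRC1 and SDHD, had 3.21, 3.67 and 6.195 TPM in Nrf2-Pink1 siRNA cells, 4.29, 4.04 and 3.32 TPM in Pink1 siRNA cells and 3.15, 3.35 and 3.605 TPM in Nrf2 siRNA cells, against 4.38, 3.71 and 4.63 TPM in scramble cells. GABPA had 4.84, 8.41 and 5.68 TPM in Nrf2-Pink1 siRNA cells, 6.01, 6.67 and 5.19 TPM in Pink1 siRNA cells and 7.58, 5.71 and 6.18 TPM in Nrf2 siRNA cells, against 8.99, 6.89 and 8.12 TPM in scramble cells. Their log2 fold changes against scramble ran from -0.37 for GABPA with Pink1 siRNA to -0.004 for NRF1 with Nrf2-Pink1 siRNA, and none passed the test.

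Assembly factors and electron carriers gave no call against scramble. The lists held 4 assembly factors of complex II (3 tested), 6 of complex III, 22 of complex IV (21 tested), 3 of complex V, and 17 genes for cytochrome c, for coenzyme Q synthesis and binding, and for the electron-transfer flavoproteins ETFA, ETFB and ETFDH. The smallest adjusted p with Nrf2-Pink1 siRNA belonged to LYRM7, COX20 and COQ10A. LYRM7, a complex III assembly factor, had 1.13, 2.18 and 1.03 TPM, against 3.06, 4.38 and 4.305 TPM in scramble cells. Its log2 fold change was -1.03 (limma adjusted p = 0.171). COX20, a complex IV assembly factor, had 21.7, 36.9 and 29.5 TPM, against 48.02, 47.4 and 36.8 TPM in scramble cells. Its log2 fold change was -0.59 (limma adjusted p = 0.193). COQ10A, a coenzyme Q binding protein, had 7.41, 5.79 and 10.6 TPM, against 4.61, 2.895 and 4.54 TPM in scramble cells. Its log2 fold change was 0.82 (limma adjusted p = 0.134). LYRM7 and COX20 were lower and COQ10A higher in the mean, and none of them passed the test. For the 3 genes with ARE letters in their promoter, the log2 fold change with Nrf2 siRNA was 0.19 (UQCRC1), -0.11 (UQCR11) and -0.38 (ATP5ME). None of these changes passed the test, and a part of the letters in them was not tested.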

How the data were processed

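TPM of 24053 Ensembl identifiers was deposited by the authors in a table of 24 libraries. Per the submitters' processing notes, STAR, RSEM and edgeR and the builds GRCh37 and hg19 were used; the sources used here give neither versions nor which tool made the TPM. Per the labels' protocols, libraries were stranded, mRNA-based and paired-end. Column sums were 999678 to 999945. Symbols were found for 19325 identifiers. Technical pairs were averaged, and log2(TPM + 1) was fitted for the 13810 genes whose mean reached 1 TPM. The fit used limma 3.58.1 (R 4.3.3) with 4 groups, a spread shared by all groups and an intensity trend. It was tried on simulated data with equal spread in all groups and changes far larger than those of the subunits. That trial does not show how well changes as small as theirs are found. Tests were two-sided and adjusted by Benjamini-Hochberg over all genes tested. An exact permutation test of 3 against 3 samples cannot give a two-sided p below 0.1 and was not used. The alternatives were median-of-ratios, quantile and identifier-removed scaling, pseudocounts of 0.1 and 5, a filter at 5 TPM or none, sample weights, single technical libraries, a replicate block and left-out samples. Promoter windows are RefSeq's (GRCh38.p14), and no other coordinates are given. The 39 members, the gene lists, the promoters shown and the motifs were chosen with earlier results of these data known. Named genes are catalytic, core and subunit c genes, NDUFA4, the extremes of each comparison, the most and least abundant gene of each complex, and, of the other lists, called genes or else the smallest adjusted p. COX6C, COX7A2, ATP5F1C, ATP5PB, TFAM, NRF1, GABPA and SDHD in the promoters shown were added after their values were seen.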

Additional observations from a re-analysis of the deposited data

How the results depend on the processing

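Of 13 other settings per comparison (12 for the interaction) beside left-out samples, most gave 0 of 39 subunits called, as in the report; the settings without Nrf2-Pink1 siRNA samples, or without replicates 1 and 3 of that group, were chosen after seeing the data and gave 0 calls. With sample weights, which limma set from 0.211 to 11.4 and whose estimate stopped before it converged, the counts were 11 with Nrf2-Pink1 siRNA (22.2% of all genes), 1 (SDHC) with Pink1 siRNA (5.89%) and 1 (COX7B) with Nrf2 siRNA (5.85%) against scramble, 5 and 8 with Nrf2-Pink1 siRNA against Pink1 and Nrf2 siRNA (17.7% and 13.7%), 1 (UQCRC2) for Pink1 against Nrf2 siRNA (7.74%), and 2 (SDHC and COX7B) for the interaction (3.65%). With Nrf2-Pink1 siRNA against scramble, median-of-ratios rescaling gave 1 call (UQCRB; 2.43% of all genes), and quantile normalization and removal of ENSG00000226958 gave 2 each (UQCRB and COX7A2; 2.14% and 2.06%). Quantile normalization gave 1 for Pink1 against Nrf2 siRNA (UQCRC2; 2.48%). The cause was not tested. Leaving out 1 sample gave 0 calls in all 7 comparisons. The median log2 fold change of the 39 then ranged from -0.39 to 0.04 (Nrf2-Pink1 siRNA), -0.20 to -0.07 (Pink1 siRNA) and -0.35 to -0.09 (Nrf2 siRNA) against scramble, from -0.23 to 0.15 and -0.17 to 0.16 for Nrf2-Pink1 siRNA against Pink1 and Nrf2 siRNA, from -0.08 to 0.15 for Pink1 against Nrf2 siRNA, and from -0.03 to 0.32 for the interaction. The labels do not say whether a shared replicate number marks a pair. Same-numbered samples correlated in their deviations at -0.09 to 0.11, against -0.13 to 0.17 for different numbers, which shows no sign of pairing but cannot settle it. With the replicate block 0 of 39 subunits were called in every comparison. Depth is unknown, which leaves counting error at low levels unmeasured.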

Other observations

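Long and short subunits were set side by side. The 11 subunits with a coding length of at least 600 bases (GENCODE 29) had a median log2 fold change of -0.06 with Nrf2-Pink1 siRNA, -0.07 with Pink1 siRNA and -0.20 with Nrf2 siRNA against scramble, and the 28 shorter ones had -0.24, -0.20 and -0.23. Across the 39 genes, which share libraries and are not independent, Spearman's rho between coding length and log2 fold change was 0.594 with Nrf2-Pink1 siRNA, 0.395 with Pink1 siRNA and 0.039 with Nrf2 siRNA. Single genes went against the split: ATP5F1D, with 504 bases, had the highest log2 fold change of the 39 with Nrf2-Pink1 siRNA (0.26), and ATP5F1C, with 891 bases, had -0.35 with Pink1 siRNA and -0.35 with Nrf2 siRNA. This split was chosen after the values were seen.

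Copies of 21 subunit genes, 38 identifiers in all, were listed in the same table. Their summed level reached 15.9% of the parent for ATP5F1E, 10.1% for NDUFA4, 9.4% for SDHA, 6.7% for COX7B and 6.58% for UQCRH, so the levels of these 5 genes are uncertain by how reads were divided. Of 10 alternative or tissue-specific isoforms, 5 were in the table. COX7A2L, a factor that joins complexes III and IV, had 54.8, 84.2 and 92.9 TPM in Nrf2-Pink1 siRNA cells, 75.8, 87.99 and 83.8 TPM in Pink1 siRNA cells and 82.1, 54.5 and 60.5 TPM in Nrf2 siRNA cells, against 85.6, 75.2 and 83.6 TPM in scramble cells. The muscle form COX6A2 and the hypoxia-linked NDUFA4L2 were below 1 TPM in all 12 samples.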
